A study of Mus musculus with 12 samples.

Results

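Elastic fibres and the microfibrils that carry them are built from a small set of secreted proteins, and 10 of their genes were followed here in fat tissue: Fbn1, Eln, Mfap2, Mfap4, Mfap5, Fbln1, Fbln2, Fbln5, Emilin1 and Ltbp4. They were chosen by name, as an elastic fibre and microfibril list, from 31053 genes, and all 10 were measured. Single cells of the stromal vascular fraction, which is what remains of fat after the floating adipocytes are removed, had been sequenced by a droplet method that counts unique molecular identifiers (UMIs) at the 3′ end of each transcript. The cells came from epididymal (eWAT) and inguinal (iWAT) white adipose tissue of male mice aged 12 weeks. WT-Veh mice were C57BL/6J given methylcellulose vehicle, ob/ob-Veh mice carried Lepob on both alleles, lack working leptin and received the same vehicle, and ob/ob-Rosi mice were Lepob/Lepob mice gavaged with the PPARγ agonist rosiglitazone at 30 mg/kg each morning and evening for 3 days. Each depot had 2 libraries per group, labelled biological replicates, so 12 in all. No WT mice given rosiglitazone were among them, and fibres or protein were not measured.

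Fibrillin-1, from Fbn1, polymerises into microfibrils, and elastin, from Eln, is laid down on that scaffold and crosslinked. Mfap2 and Mfap5 encode the microfibril-associated glycoproteins MAGP-1 and MAGP-2, Mfap4 encodes a fibrinogen-related glycoprotein of the same fibres, the fibulins and Emilin1 link elastin to microfibrils or basement membranes, and Ltbp4 encodes a latent TGF-β binding protein that guides fibulin-5 and elastin onto microfibrils. In fat, fibroblast-like adipocyte progenitor cells (APCs) are known as a main source of such matrix.

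Cells were clustered in each depot without the 10 genes among the clustering genes and were named from fixed markers. This gave 17677 APC-like cells in eWAT and 19674 in iWAT, split into progenitor-like cells (Pi16 and Dpp4 markers) and preadipocyte-like cells (Col15a1 and Icam1 among their markers), beside endothelial (EC-like), macrophage-like and, in eWAT, mesothelial-like cells. Pdgfra averaged 545 CPM (UMIs of a gene, scaled so that all genes of a class in a library sum to the same total) in eWAT APC-like cells against 9.78 CPM in macrophage-like cells, and Pi16 averaged 1274 CPM in eWAT progenitor-like cells against 106 CPM in preadipocyte-like cells. Col15a1 was also present in eWAT progenitor-like cells, at 248 CPM against 769 CPM in preadipocyte-like cells. No cluster was named mural, for the cells that surround the endothelium of vessels and make elastin in arteries. An eWAT cluster of 166 cells held the mural markers Myh11 and Acta2 among its leading genes together with the adipocyte genes Cidec and Adipoq and stayed unnamed.

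The library of iWAT WT-Veh replicate 1 held 383 APC-like cells among 17063, with 7402 of its cells in unnamed clusters, and the iWAT counts of called genes are therefore also given without it. The low number depended on naming by cluster. When each cell was instead assigned singly by its markers, the same library held 2157 APC-like cells. APC-like cells lay in different clusters by group, in eWAT mostly in clusters 14, 15 and 16 for ob/ob-Veh and 6 and 7 for the rest, and in iWAT mostly in cluster 13 for ob/ob-Veh and 1, 2 and 16 for the rest. Progenitor-like cells made up 49.5% and 48.7% of APC-like cells in the ob/ob-Veh eWAT libraries and 5.98% to 12.2% in the other 4 eWAT libraries. These shares depended on naming by cluster. With cells assigned singly, progenitor-like cells numbered 1684 of 4348 and 737 of 3236 APC-like cells in ob/ob-Veh eWAT. In the other 4 libraries they numbered 61 to 173. Within both subclasses ob/ob-Veh cells fell into clusters of their own. In eWAT most ob/ob-Veh progenitor-like cells lay in subclusters 7 and 9 and most of those of the other groups in subcluster 2, while most ob/ob-Veh preadipocyte-like cells lay in subclusters 5 and 8 and most of the rest in subclusters 0, 3 and 6. Subclusters 5 and 8 had 7 and 8 preadipocyte markers detected, but 0 and 0 at least 2-fold above the other APC-like cells. In subclusters 0, 3 and 6 such markers numbered 4, 1 and 2, so the preadipocyte-like name rests on mean marker scores. In iWAT subclusters 7, 9 and 11 held most ob/ob-Veh cells. Subclusters 0 and 9 of eWAT and 7 of iWAT had 1 marker of another class and none of their own among their 10 leading genes, and the borders of the subclasses, and the genes that passed a test within them, moved between runs that differed in numerical rounding. Progenitor-like and preadipocyte-like cells are therefore described by their values, without a test between groups or depots. The same holds for iWAT EC-like cells, of which cluster 17 (4723 of 8906 cells) had the mural marker Rgs5 and none of the fixed endothelial markers among its 10 leading genes. Of the fixed endothelial markers 8 were detected in cluster 17, all 8 at least 2-fold above the other cells. Any pair of libraries shared 7 to 99 cell barcodes, 0.108% to 1.05% of the smaller one. Whole libraries held 20132553 to 92475986 UMIs. Lep is mutated rather than deleted in ob/ob mice, so its level, 0.139 to 4.49 CPM over all kept cells of a library, checked no label.

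The members did not share 1 pattern of expression across cell classes. Levels below are CPM, the UMIs of a gene scaled to the summed UMIs of the cells of a class in a library, averaged over the 6 libraries of a depot, and they are compared between cells for 1 gene at a time. Since the classes were defined from the same cells, these levels are descriptions without a test. Macrophage-like cells served as the background level.

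Fbn1, the core microfibril gene, was lower step by step across 5 eWAT classes without overlap of their ranges. It averaged 3135 ± 843 CPM (SD, n = 6 libraries) in progenitor-like cells and 1099.9 ± 251 CPM in preadipocyte-like cells. Mesothelial-like cells had 342 CPM, EC-like cells 74.2 CPM and macrophage-like cells 26.4 CPM. The B-like and T and NK-like classes, at 161 CPM (44.3 to 346 CPM) and 84.6 CPM (31.1 to 127 CPM), overlapped their neighbours in that order. So did unnamed, DC-like and monocyte-like cells, at 487, 43.5 and 30.1 CPM. In iWAT the mean was 2339 ± 1017 CPM for the progenitor-like and 889.9 ± 267 CPM for the preadipocyte-like subclass, and there the ranges of these neighbours overlapped, as did those of EC-like and macrophage-like cells. Thinned to 700 UMIs a cell, 49.5% of eWAT APC-like cells held an Fbn1 UMI against 2.20% of macrophage-like cells. Unthinned, the shares were 82.7% and 10.7%, at median depths of 3288 and 3541 UMIs. In iWAT the macrophage-like cells of the ob/ob-Veh libraries carried 163 and 95.4 CPM of Fbn1, against 7.33 to 38.0 CPM in the other 4 libraries.

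Mfap5 followed Fbn1. Progenitor-like cells had 3277 ± 1055 CPM in eWAT and 3279 ± 1770.3 CPM in iWAT, and preadipocyte-like cells 1818 ± 729 CPM and 984 ± 459 CPM, with overlapping ranges in both depots. Its partner gene Mfap2 was ordered the other way, with 133 ± 77.3 CPM in eWAT preadipocyte-like cells and 91.0 ± 47.3 CPM in progenitor-like cells, ranges that also overlapped. Mfap2 was low in mesothelial-like and EC-like cells, at 8.76 and 8.09 CPM against 3.80 CPM in macrophage-like cells. In iWAT Mfap2 was ordered as in eWAT, with 160.3 and 75.0 CPM, and its ranges overlapped there too.

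The range of Mfap4 in eWAT progenitor-like cells ran from 17.1 to 826 CPM, and that in eWAT preadipocyte-like cells from 14.9 to 64.1 CPM. In iWAT it was close to absent from progenitor-like cells, with 151 UMIs in 11800 cells and a mean of 2.01 CPM, and averaged 29.9 ± 24.3 CPM in preadipocyte-like cells. EC-like cells of iWAT gave 15 UMIs of Mfap4 in 8906 cells.

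Eln was spread more evenly over stromal classes than the microfibril genes. In eWAT it averaged 304 CPM in progenitor-like cells, 270.2 ± 99.6 CPM in preadipocyte-like cells and 248 ± 62.7 CPM in mesothelial-like cells, which overlapped. EC-like cells followed at 98.4 ± 21.2 CPM and macrophage-like cells at 7.95 CPM. The iWAT order was preadipocyte-like, progenitor-like and EC-like cells, at 449 ± 159, 243 ± 91.2 and 137 ± 49.5 CPM, each overlapping its neighbour.

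Among the fibulins, Fbln1 stood apart because mesothelial-like cells, the lining of the visceral depot, had the highest mean. They averaged 641 ± 337 CPM, against 268 ± 155 CPM in the progenitor-like subclass and 224 ± 40.9 CPM in the preadipocyte-like one, with overlapping ranges. EC-like cells carried 14.1 CPM. Fbln2 was highest in both APC-like subclasses, at 1691 ± 793 CPM in the progenitor-like and 1391 ± 605 CPM in the preadipocyte-like subclass of eWAT, followed by mesothelial-like cells at 864 ± 219 CPM. Fbln5, which elastic fibre assembly requires, ran from 272 ± 40.4 CPM in eWAT progenitor-like cells through 210.0 ± 55.7 CPM in mesothelial-like and 201 ± 54.4 CPM in preadipocyte-like cells to 101 ± 30.8 CPM in EC-like cells.

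Emilin1, the elastin-microfibril interface gene, was highest in preadipocyte-like cells, at 157 ± 72.6 CPM in eWAT and 67.7 ± 28.8 CPM in iWAT. In iWAT progenitor-like cells it had 15.7 CPM, which overlapped the macrophage-like level of 10.6 CPM. Ltbp4 ran in eWAT from 702 ± 174 CPM in progenitor-like to 333 ± 210.2 CPM in EC-like cells. These ranges overlapped, at 563 to 1033 CPM and 187 to 651 CPM. In iWAT the order turned, and EC-like cells, at 248 ± 66.3 CPM, came before preadipocyte-like cells at 181 ± 74.4 CPM and progenitor-like cells at 67.6 ± 32.9 CPM. The EC-like and preadipocyte-like ranges overlapped, while the EC-like and progenitor-like ranges did not.

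**Figure D1:**
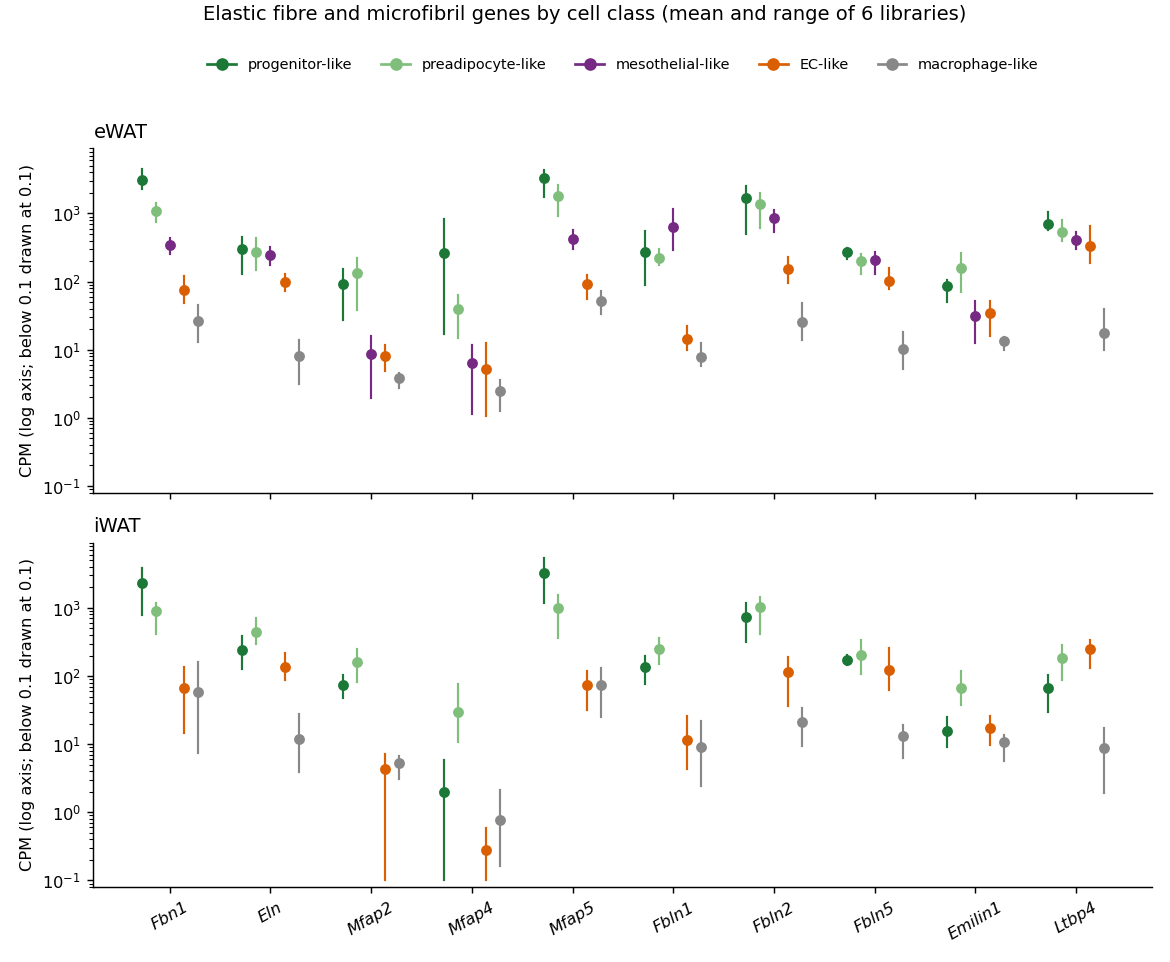
Level of each gene by cell class in eWAT (top) and iWAT (bottom), in CPM on a log axis. Points are the mean and lines the range of 6 libraries, with values below 0.1 drawn at 0.1. Fbn1 and Mfap5 averaged higher in progenitor-like cells than in any other class of the same depot, Fbln1 was highest on average in mesothelial-like cells, and Mfap4 was near 0 in iWAT progenitor-like cells.

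The genes whose levels were most like those of a member were found over 102 sums of a class in a library, both depots together, as Pearson's r of log2(CPM + 1). These points share libraries and depths, so r is a description across points and not a test. Fbn1 was nearest to Fstl1 (r = 0.967), Clec3b (r = 0.955) and Cd248 (r = 0.945). For Mfap5 the nearest were Serping1 (r = 0.932), Fbn1 (r = 0.916) and Clec3b (r = 0.908). Mfap2 was nearest to Mmp2 (r = 0.852), Col6a2 (r = 0.850) and Dpep1 (r = 0.846), and Fbln2 to Mxra8 (r = 0.937), Mmp14 (r = 0.933) and Col6a2 (r = 0.931). The list for Mfap4 was Cilp (r = 0.873), Cpxm2 (r = 0.852) and Matn2 (r = 0.849), and that for Eln was Gstm2 (r = 0.920), Amotl2 (r = 0.903) and Tgfb1i1 (r = 0.901). Fbln1 was nearest to Mmp23 (r = 0.905), Hoxc8 (r = 0.904) and Gas1 (r = 0.903), and Fbln5 to Tcaf1 (r = 0.892), Nectin3 (r = 0.872) and Sgce (r = 0.871). Emilin1 had the weakest likeness of the 10, to Maged2 (r = 0.810), Cpxm1 (r = 0.806) and Sgcb (r = 0.805), and Ltbp4 was nearest to Hoxa7 (r = 0.879), Hoxa5 (r = 0.868) and Tgfb1i1 (r = 0.844).

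In eWAT APCs the question was how leptin deficiency, with the obesity it brings, and short PPARγ activation went with the levels of these genes. Mfap2, Mfap4, Fbln2 and Emilin1 were lower in ob/ob-Veh than in WT-Veh APC-like cells and higher in ob/ob-Rosi than in ob/ob-Veh. Fbn1 and Eln, which encode the main fibre polymers, did not pass the test in either comparison. A difference was called when its adjusted p (edgeR quasi-likelihood test on summed UMIs, Benjamini-Hochberg over all genes) was at most 0.05 and it reached 1.1-fold. In this sense 4 of 10 members were called for ob/ob-Veh against WT-Veh, all lower, where 7.55% of 13181 tested genes were called in either direction. For ob/ob-Rosi against ob/ob-Veh 4 of 10 were called, all higher, where 8.48% of genes were called. DESeq2 called 5 and 6 members in these comparisons, but also more genes in all, 1330 and 1463 of 13181. When edgeR was blocked on replicate, 4 and 6 members were called, and no share over all genes is given for that fit. Both comparisons share the ob/ob-Veh libraries.

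Mfap2 (chr4:141010418-141015984, GRCm38) had 156 and 189 CPM in WT-Veh, 33.0 and 48.4 CPM in ob/ob-Veh and 114 and 211 CPM in ob/ob-Rosi. Both ob/ob-Veh libraries lay below all others. The log2 difference was -2.16 ± 0.34 (SE, adjusted p = 0.00398) for ob/ob-Veh against WT-Veh and 2.07 ± 0.33 (adjusted p = 0.00461) for ob/ob-Rosi against ob/ob-Veh, the latter 4.19-fold higher.

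Emilin1 (chr5:30913402-30921277) had 235 and 176 CPM in WT-Veh, 59.7 and 75.0 CPM in ob/ob-Veh and 159 and 173 CPM in ob/ob-Rosi. The ob/ob-Veh libraries again did not overlap the rest, with log2 differences of -1.69 ± 0.28 (adjusted p = 0.00565) and 1.36 ± 0.28 (adjusted p = 0.0139).

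Fbln2 (chr6:91212455-91272540) had 1949.9 and 2054 CPM in WT-Veh, 554 and 808 CPM in ob/ob-Veh and 1583 and 1370.1 CPM in ob/ob-Rosi. Here the ob/ob-Rosi libraries lay between the other groups. The log2 differences were -1.64 ± 0.26 (adjusted p = 0.00477) and 1.18 ± 0.26 (adjusted p = 0.0196).

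Mfap4 (chr11:61485431-61488900) had 71.7 and 79.3 CPM in WT-Veh, 15.8 and 31.0 CPM in ob/ob-Veh and 53.0 and 98.8 CPM in ob/ob-Rosi. The log2 differences were -1.79 ± 0.36 (adjusted p = 0.0131) and 1.79 ± 0.36 (adjusted p = 0.0119). Mfap5 (chr6:122505845-122529290) was also lowest in both ob/ob-Veh libraries, with 2255 and 2112 CPM in WT-Veh, 1514 and 1227 CPM in ob/ob-Veh and 2538 and 2628 CPM in ob/ob-Rosi, but its adjusted p values were 0.153 and 0.0629.

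The remaining members gave values without a call. Fbn1 had 1523 and 1214 CPM in WT-Veh, 1859.5 and 1385 CPM in ob/ob-Veh and 1688 and 1185 CPM in ob/ob-Rosi, and the 3 groups overlapped. In preadipocyte-like cells both ob/ob-Veh libraries, at 898 and 758 CPM, lay below WT-Veh at 1341 and 1056 CPM and ob/ob-Rosi at 1411 and 1135 CPM. The ob/ob-Veh APC-like cells held a larger share of progenitor-like cells, in which Fbn1 averaged higher, and the part of this share in the Fbn1 values was not tested. Eln was at 230.3 and 222 CPM, 247 and 441 CPM, and 307 and 141 CPM in the same order, with ob/ob-Rosi overlapping the other groups. Fbln1 was at 193 and 234 CPM, 135 and 222 CPM, and 286 and 225 CPM. Ltbp4 (chr7:27305136-27337692) was higher in both ob/ob-Veh libraries (612 and 877 CPM) than in WT-Veh (387 and 458 CPM) and ob/ob-Rosi (479.6 and 426 CPM), with adjusted p of 0.123 and 0.160. Fbln5 was lowest in ob/ob-Rosi, at 148 and 128 CPM against 272 and 267 CPM in ob/ob-Veh (log2 difference -0.92 ± 0.26, adjusted p = 0.0536). Between ob/ob-Rosi and WT-Veh, 0 of 10 members were called by edgeR, with 1 at an unadjusted p under 0.05 and 0 called by DESeq2, and 0.0% of all genes were called.

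Mfap2 kept both calls when each library was left out in turn. Mfap4 lost the first without ob/ob-Veh replicate 1 or either WT-Veh library (adjusted p = 0.120, 0.0819 and 0.0583, log2 differences -1.46, -1.77 and -1.78) and the second without ob/ob-Rosi replicate 2 or ob/ob-Veh replicate 1 (adjusted p = 0.109 and 0.108, log2 differences 1.24 and 1.46). Emilin1 lost the first without WT-Veh replicate 1 or ob/ob-Veh replicate 1 (adjusted p = 0.0674 and 0.0640, log2 differences -1.37 and -1.64), and Fbln2 without ob/ob-Veh replicate 1 (adjusted p = 0.0536, log2 difference -1.48). Both lost the second without either ob/ob-Veh library or without ob/ob-Rosi replicate 2, with adjusted p from 0.0553 to 0.201, with log2 differences of 1.28 to 1.45 for Emilin1 and 1.03 to 1.38 for Fbln2. Each of these fits left 1 library in the group concerned. The range of member counts over them is given further below, without a share over all genes.

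Other RNA moved with these groups in eWAT APC-like cells. The 8 macrophage genes summed to 699 and 1145 CPM in ob/ob-Veh and to 2463 to 3889 CPM in the other groups, with 7 of 8 called lower and then higher and all 8 detected in every library. Macrophage-like cells themselves held at most 4.50 CPM of Mfap2, 3.65 CPM of Mfap4, 48.5 CPM of Fbln2 and 15.5 CPM of Emilin1, all below the lowest APC-like level of the same gene. The 13 dissociation-induced genes, all detected in every library, summed to 16719 and 13819 CPM in ob/ob-Veh against 5402 to 8737 CPM elsewhere, with 5 of 13 called higher and then 5 lower. The part of the macrophage and dissociation-induced RNA in the results was not tested. The 7 adipocyte genes summed to 8.31 to 59.2 CPM, and Adipoq, Plin1 and Cfd were at 0 in some library.

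Within each eWAT subclass Mfap2, Mfap4, Mfap5, Fbln2 and Emilin1 were lowest in the ob/ob-Veh libraries. The values are a description without a test. Mfap5 in eWAT preadipocyte-like cells had 2158 and 1927 CPM in WT-Veh, 933 and 911 CPM in ob/ob-Veh and 2374 and 2604 CPM in ob/ob-Rosi. In progenitor-like cells it had 3855 and 3359.6 CPM, 2227 and 1761 CPM, and 4287 and 4172 CPM. Progenitor-like cells made up more of ob/ob-Veh APC-like cells and averaged higher in Mfap5, and the part of this share in the APC-like values was not tested.

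Mfap2 in preadipocyte-like cells had 166 and 205 CPM in WT-Veh, 38.3 and 48.6 CPM in ob/ob-Veh and 119 and 218 CPM in ob/ob-Rosi. In progenitor-like cells the values were 118 and 118 CPM, 27.6 and 50.02 CPM, and 78.7 and 153 CPM. In both subclasses WT-Veh and ob/ob-Rosi overlapped, and ob/ob-Veh lay below both.

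Fbln2 in progenitor-like cells had 2204 and 2498 CPM in WT-Veh, 502 and 913 CPM in ob/ob-Veh and 2060.2 and 1967 CPM in ob/ob-Rosi. In preadipocyte-like cells it had 2013 and 2012 CPM, 607 and 752 CPM, and 1574 and 1389 CPM. Emilin1 in preadipocyte-like cells had 259 and 189 CPM, 69.3 and 75.4 CPM, and 167 and 179.8 CPM, and in the progenitor-like subclass it ran over a narrower range, from 50.5 to 106 CPM. Mfap4 in preadipocyte-like cells had 56.9 and 50.1 CPM, 14.9 and 16.3 CPM, and 38.6 and 64.1 CPM.

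In eWAT progenitor-like cells Mfap4 was among the 10 leading genes of subcluster 2, which held most WT-Veh and ob/ob-Rosi progenitor-like cells. It had 244 and 249 CPM in WT-Veh (132 and 292 UMIs), 17.1 and 54.8 CPM in ob/ob-Veh (204 and 352 UMIs), and 186 and 826 CPM in ob/ob-Rosi (142 and 497 UMIs). When each cell was instead assigned singly by its markers, the group means were 87.9, 14.3 and 155 CPM.

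**Figure D2:**
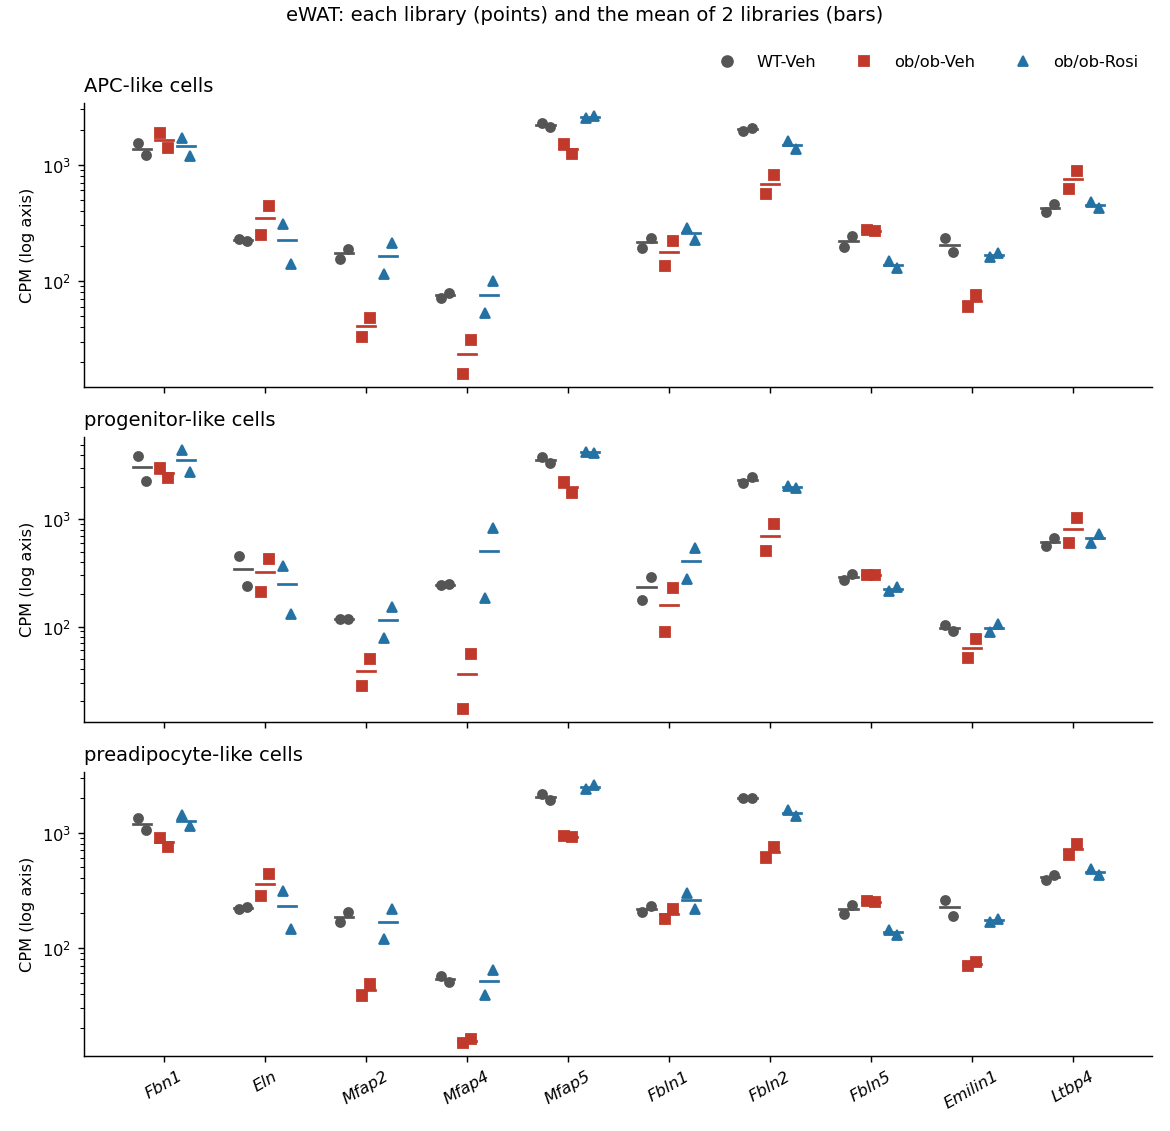
CPM of each gene in eWAT APC-like (top), progenitor-like (middle) and preadipocyte-like (bottom) cells, log axis. Each point is 1 library and each bar the mean of the 2 libraries of WT-Veh (circles), ob/ob-Veh (squares) or ob/ob-Rosi (triangles). The ob/ob-Veh libraries lie below all others for Mfap2, Mfap4, Mfap5, Fbln2 and Emilin1 in all 3 rows.

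Sequence before the annotated starts of Mfap2 is shown because of the 10 members this gene had the largest called group difference in eWAT APC-like cells. The set of RefSeq promoter windows used (GRCm38.p6) covered 7 of the 10 members and held none for Eln, Mfap4 and Mfap5. The 250 bases before each start were searched on both strands for AGGTCA, the half-site that nuclear receptors such as PPARγ bind in pairs. This half-site was in the windows of both annotated Mfap2 starts and in none of the other 10 windows of members, and in 14.0% of 32841 windows genome-wide. The first Mfap2 window also held GGAATG and CCAAT, and the second GGGCGG, found in 12.6%, 33.9% and 32.7% of windows. Both Mfap2 windows overlapped an annotated exon, and the second match lay inside the gene, which begins at chr4:141010418. Windows of 30 bases with the match in capitals, on the plus strand and 5′ to 3′, read as follows, first at chr4:141010262-141010291, where the match begins 150 bases before the start, and then at chr4:141010446-141010475, where it begins 223 bases before the other start and lies on the reverse strand.
Mfap2, first start: gttcctggattgAGGTCAactcccagggtc
Mfap2, second start: tttccagccccgTGACCTctgggctctggg
A single match of 6 letters is common, and binding was not measured.

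In vessel and lining cells of eWAT other members passed the test than in APC-like cells. The EC-like class there joined cluster 13 (3232 cells) and cluster 21 (137 cells, led by Ccl21a, Mmrn1 and Reln). Cluster 21 held 34 and 0 cells in WT-Veh, 37 and 63 in ob/ob-Veh and 3 and 0 in ob/ob-Rosi, and its part in the results was not tested. In EC-like cells 1 of 10 members, Ltbp4, was called higher in ob/ob-Veh (3.42% of 10993 genes) and lower in ob/ob-Rosi (3.61%). It had 210.3 and 197 CPM in WT-Veh, 651 and 551 CPM in ob/ob-Veh and 202 and 187 CPM in ob/ob-Rosi. The ob/ob-Veh libraries lay well above the rest, with log2 differences of 1.44 ± 0.25 (adjusted p = 0.0137) and -1.52 ± 0.25 (adjusted p = 0.00909). With the replicate number as a block 4 and 5 of 10 members were called in these cells, and no share over all genes is given for that fit. Each call ended when some library was left out: for ob/ob-Veh without ob/ob-Veh replicate 1 or either WT-Veh library (adjusted p = 0.102, 0.0655 and 0.0846, log2 differences 1.29 to 1.5), and for ob/ob-Rosi without ob/ob-Rosi replicate 2 or ob/ob-Veh replicate 1 (adjusted p = 0.0644 and 0.0687, log2 differences -1.49 and -1.39). The same cells also carried more adipocyte RNA in ob/ob-Veh, where the 7 genes summed to 1507 and 1313 CPM against 19.5 to 55.5 CPM elsewhere and 6 of 7 were called higher, with Plin1 and Cfd at 0 in some library. The macrophage genes summed to 3708 and 2249 CPM in ob/ob-Veh and 6109 to 8385 CPM elsewhere, with 7 of 8 called lower, all 8 detected in every library and at most 39.7 CPM of Ltbp4 in macrophage-like cells. The dissociation-induced genes summed to 7331 and 6158 CPM in ob/ob-Veh and 4191 to 5864 CPM elsewhere, with 1 of 13 called higher and then 2 lower. The part of the adipocyte, macrophage and dissociation-induced RNA in the Ltbp4 result was not tested. Mfap5 in EC-like cells had 125 and 96.0 CPM, 54.8 and 61.5 CPM, and 97.2 and 124 CPM, with adjusted p of 0.0606 and 0.0557, and overlapped its macrophage-like level of 33.2 to 71.7 CPM.

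In mesothelial-like cells 1 of 8 tested members, Fbln1, was called higher in ob/ob-Veh (3.56% of 7518 genes). It had 291 and 441 CPM in WT-Veh, 950.4 and 1157 CPM in ob/ob-Veh and 554 and 452 CPM in ob/ob-Rosi, a log2 difference of 1.45 ± 0.26 (adjusted p = 0.0146). For ob/ob-Rosi against ob/ob-Veh, 0 of 8 members were called by edgeR (1.26% of genes), and Fbln1 differed by -0.94 ± 0.25 (adjusted p = 0.0939). An unadjusted p under 0.05 was found for 4 members and 1392 genes, and DESeq2 called 2 members and 220 genes. With the replicate number as a block 2 and 3 of 8 were called, and no share over all genes is given for that fit. Mfap2 and Mfap4 were too low there to test, with 81 and 39 UMIs. Fbln2 and Emilin1 had the same signs in mesothelial-like as in APC-like cells, without a call. Their log2 differences were -0.59 and 0.94 (adjusted p = 0.169 and 0.0751), and -0.52 and 0.41 (adjusted p = 0.579 and 0.706). The Fbln1 call ended without WT-Veh replicate 1 or ob/ob-Veh replicate 2 (adjusted p = 0.135 and 0.0703, log2 differences 1.25 and 1.37). The macrophage genes in these cells summed to 1197 and 970.1 CPM in ob/ob-Veh and 2942 to 5137 CPM elsewhere, with 7 of 8 called lower, all 8 detected in every library and at most 12.6 CPM of Fbln1 in macrophage-like cells. The dissociation-induced genes summed to 8759.5 and 2448 CPM in ob/ob-Veh and 835 to 2676 CPM elsewhere, with 1 of 13 called higher and then 2 lower. The part of the macrophage and dissociation-induced RNA in the Fbln1 result was not tested.

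**Figure D3:**
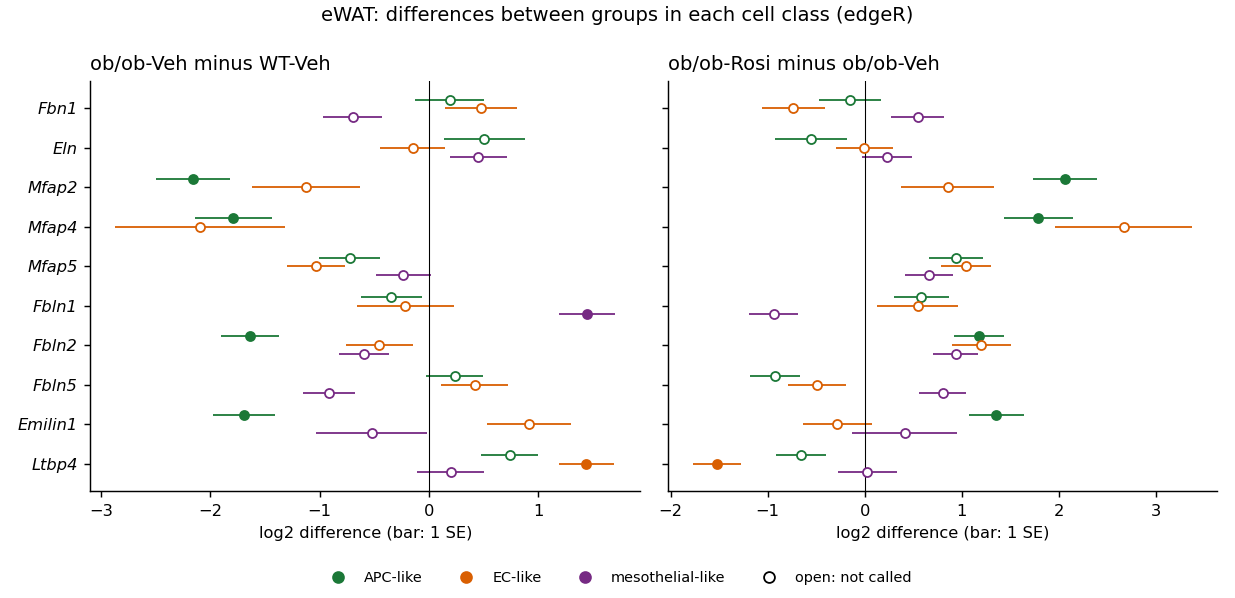
Log2 differences of each gene in eWAT, for ob/ob-Veh against WT-Veh (left) and ob/ob-Rosi against ob/ob-Veh (right), by cell class. Points are edgeR estimates, bars 1 standard error, and filled points passed the call. Filled points for Mfap2, Mfap4, Fbln2 and Emilin1 in APC-like cells lie left of 0 in the left panel and right of 0 in the right panel, and Ltbp4 in EC-like cells goes the other way. Fbln1 in mesothelial-like cells is filled in the left panel.

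In iWAT APC-like cells no member passed the test with all libraries, and the count moved with the setting and with 1 library. With all 6 libraries, 0 of 10 members were called by edgeR in APC-like cells for ob/ob-Veh against WT-Veh (0.346% of 13576 genes) and 0 of 10 for ob/ob-Rosi against ob/ob-Veh (0.633%), with 4 and 4 at an unadjusted p under 0.05 and 2 and 4 called by DESeq2. Over all 13576 genes 2304 and 2951 had an unadjusted p under 0.05, and DESeq2 called 649 and 1090. Without WT-Veh replicate 1, the library of 383 APC-like cells, 4 of 10 members were called lower in ob/ob-Veh (5.87% of genes) and the same 4 higher in ob/ob-Rosi (12.0%): Mfap2, Mfap5, Fbln2 and Ltbp4. Without the low-count filter, and with that library kept, 4 and 4 were called, and no share over all genes is given for that fit. In the fit without it the WT-Veh group is 1 library, assumed to vary like the other groups. In iWAT APC-like cells 0 of 10 members were called between ob/ob-Rosi and WT-Veh with all libraries, 1 having an unadjusted p under 0.05 and DESeq2 calling 0, and 0.0% of genes were called.

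Fbln2 in iWAT APC-like cells had 1149 and 862 CPM in WT-Veh, 323 and 466 CPM in ob/ob-Veh and 1218 and 1124 CPM in ob/ob-Rosi, and the ob/ob-Veh libraries did not overlap the rest. The log2 differences were -1.41 ± 0.30 (adjusted p = 0.102) and 1.66 ± 0.30 (adjusted p = 0.0554). Without the library they were -1.26 ± 0.31 (adjusted p = 0.0433) and 1.67 ± 0.27 (adjusted p = 0.00697).

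Mfap5 had 1448 and 2736 CPM in WT-Veh, 1059.9 and 1334 CPM in ob/ob-Veh and 3036 and 3558 CPM in ob/ob-Rosi. Its ob/ob-Rosi libraries lay above all others. The log2 differences were -0.89 ± 0.40 and 1.55 ± 0.40, adjusted p = 0.310 and 0.0976, and without WT-Veh replicate 1 they were -1.32 ± 0.31 (adjusted p = 0.0405) and 1.55 ± 0.27 (adjusted p = 0.00913). Mfap2 had 71.8 and 148 CPM, 62.3 and 55.5 CPM, and 171 and 148 CPM, with -0.99 ± 0.37 and 1.51 ± 0.37, adjusted p = 0.244 and 0.0887, and -1.44 ± 0.28 (adjusted p = 0.0260) and 1.51 ± 0.25 (adjusted p = 0.00729) without that library. In both genes WT-Veh replicate 1 lay nearer to the ob/ob-Veh values than replicate 2 did. Fbn1, without a call, went the other way, with 1559 and 669 CPM in WT-Veh, 2207 and 1725 CPM in ob/ob-Veh and 2191 and 1545 CPM in ob/ob-Rosi. Its log2 difference for ob/ob-Veh against WT-Veh was 0.79 ± 0.44 (adjusted p = 0.400), and 1.45 without WT-Veh replicate 1.

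Ltbp4 in iWAT APC-like cells had 116 and 149 CPM in WT-Veh, 35.9 and 75.9 CPM in ob/ob-Veh and 137 and 164 CPM in ob/ob-Rosi, so the ob/ob-Veh libraries were lowest, where in eWAT they were highest. Progenitor-like cells, in which Ltbp4 averaged lower than in preadipocyte-like cells, made up 83.9% and 69.9% of ob/ob-Veh APC-like cells and 33.7% to 66.6% of those of the other iWAT libraries, and the part of this share in the Ltbp4 difference was not tested. The log2 differences were -1.34 ± 0.35 and 1.54 ± 0.35, adjusted p = 0.148 and 0.0789, and without WT-Veh replicate 1 they were -1.56 ± 0.36 (adjusted p = 0.0393) and 1.54 ± 0.31 (adjusted p = 0.0155). The adipocyte genes in iWAT APC-like cells summed to 412 CPM in WT-Veh replicate 1, 157 CPM in replicate 2 and 21.6 to 58.6 CPM in the other libraries, with Adipoq and Cfd at 0 in some library and 1 of 7 called lower in ob/ob-Veh. The macrophage genes ran from 963 to 1335 CPM there. The dissociation-induced genes summed to 18155 and 17439 CPM in ob/ob-Veh and 11807 to 14332 CPM elsewhere, with 1 of 13 called lower in ob/ob-Rosi, and the part of these RNAs in the results was not tested.

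Within iWAT progenitor-like cells Mfap5 had 2868 and 3473 CPM in WT-Veh, 1171 and 1586 CPM in ob/ob-Veh and 5484 and 5093 CPM in ob/ob-Rosi, and Fbln2 had 929.7 and 746 CPM, 313 and 390.0 CPM, and 1161 and 897 CPM. In preadipocyte-like cells Mfap5 had 725 and 1273 CPM in WT-Veh, 359 and 693 CPM in ob/ob-Veh and 1291 and 1562 CPM in ob/ob-Rosi, and Fbln2 had 1311 and 1122 CPM, 416 and 692 CPM, and 1270.5 and 1428 CPM. The ob/ob-Veh libraries were lowest for both genes in both subclasses.

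Mfap2 and Ltbp4 did not separate in this way in every subclass. Mfap2 had 54.6 and 102 CPM in WT-Veh, 58.8 and 47.0 CPM in ob/ob-Veh and 89.0 and 98.9 CPM in ob/ob-Rosi in progenitor-like cells and 89.9 and 250.001 CPM, 95.5 and 81.1 CPM, and 232 and 214 CPM in preadipocyte-like cells, and WT-Veh overlapped ob/ob-Veh in both. Ltbp4 had 31.6 and 86.2 CPM in WT-Veh, 29.5 and 56.8 CPM in ob/ob-Veh and 102 and 99.4 CPM in ob/ob-Rosi in progenitor-like cells, where WT-Veh again overlapped ob/ob-Veh, and 171 and 286 CPM, 86.1 and 131 CPM, and 165 and 249.6 CPM in preadipocyte-like cells, where the ob/ob-Veh libraries were lowest. Fbln5 in preadipocyte-like cells had 285 and 341 CPM in WT-Veh, 107 and 155 CPM in ob/ob-Veh and 160.0 and 181 CPM in ob/ob-Rosi, so both WT-Veh libraries were highest there.

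In iWAT EC-like cells Fbn1 had 43.3 and 14.6 CPM in WT-Veh, 138 and 106 CPM in ob/ob-Veh and 45.2 and 57.7 CPM in ob/ob-Rosi, highest in the ob/ob-Veh libraries, whose macrophage-like cells held 163 and 95.4 CPM. Most of the EC-like cells of WT-Veh replicate 1 lay in cluster 5, most of those of WT-Veh replicate 2 in cluster 14 and most of the others in cluster 17. The adipocyte genes in EC-like cells summed to 596 and 532 CPM in ob/ob-Veh and 81.9 to 211 CPM elsewhere, and the macrophage genes to 2503 and 1901 CPM and 3066 to 7420.4 CPM, with all genes of both lists detected in every library. Their part in the Fbn1 values was not tested.

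**Figure D4:**
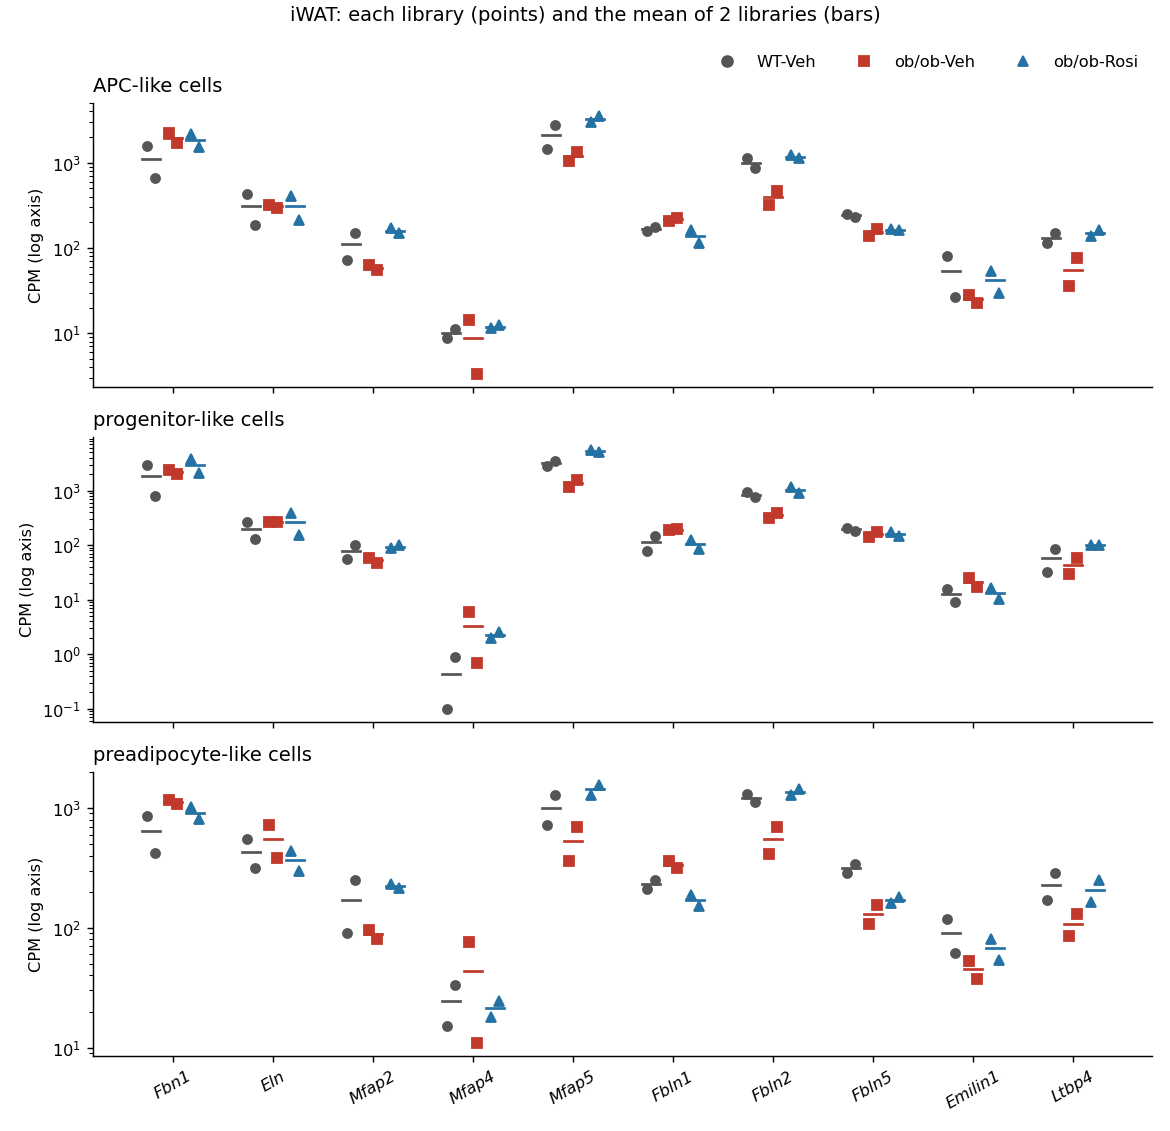
CPM of each gene in iWAT APC-like (top), progenitor-like (middle) and preadipocyte-like (bottom) cells, log axis, drawn as for eWAT with 1 point per library and values below 0.1 drawn at 0.1. The ob/ob-Veh libraries are lowest for Fbln2 in all 3 rows, the WT-Veh libraries lie apart for Fbn1 in progenitor-like cells, at 2915 and 799 CPM, and Mfap4 in progenitor-like cells lies between 0 and 5.93 CPM.

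Between depots, Mfap4, Emilin1 and Ltbp4 had the largest differences in APC-like cells, each lower in iWAT. Over the mean of the 3 groups, 4 of 10 members were called lower in iWAT than in eWAT APC-like cells (17.1% of 14158 genes were called in either direction). The other members tested were not called. Progenitor-like cells made up 5.98% to 49.5% of eWAT and 33.7% to 83.9% of iWAT APC-like cells, by library, and the part of this share in the depot differences was not tested. The eWAT and iWAT files carried different upstream filters on cells, and both were held to the same limits here. Whether both depots came from the same mice is not in the labels, and the libraries were taken as independent.

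Ltbp4 ran from 387 to 877 CPM in eWAT and from 35.9 to 164 CPM in iWAT APC-like cells, without overlap. The log2 difference was -2.27 ± 0.19 (adjusted p = 1.2e-05). In EC-like cells, which were not tested between depots, the ranges overlapped, at 187 to 651 CPM in eWAT and 129 to 333 CPM in iWAT. The Ltbp4 sequence before an internal start is shown because this gene had the smallest adjusted p between depots in APC-like cells. It lies at chr7:27333664-27333913 (GRCm38.p6, minus strand, RefSeq), inside the Ltbp4 gene and outside annotated exons, and capitals mark the GC box letters GGGCGG on either strand, which 32.7% of windows hold.
Ltbp4, 250 bases before the start: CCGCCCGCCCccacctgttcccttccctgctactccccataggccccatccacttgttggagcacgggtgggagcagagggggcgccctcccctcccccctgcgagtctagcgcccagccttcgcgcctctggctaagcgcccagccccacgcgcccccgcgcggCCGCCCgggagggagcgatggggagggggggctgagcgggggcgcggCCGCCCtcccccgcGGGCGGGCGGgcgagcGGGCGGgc
The window held 7 matches, some of them overlapping.

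Emilin1 ran from 59.7 to 235 CPM in eWAT and from 22.5 to 79.7 CPM in iWAT APC-like cells, ranges that overlapped. The log2 difference was -1.75 ± 0.25 (adjusted p = 0.000543). In progenitor-like cells the depots did not overlap, at 50.5 to 106 CPM and 8.99 to 25.4 CPM, and preadipocyte-like cells averaged 157 CPM and 67.7 CPM.

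Mfap4 ran from 15.8 to 98.8 CPM in eWAT and from 3.32 to 14.3 CPM in iWAT APC-like cells, and did not overlap. The log2 difference was -2.22 ± 0.33 (adjusted p = 0.000661). Progenitor-like cells averaged 263 CPM in eWAT and 2.01 CPM in iWAT. Preadipocyte-like cells averaged 40.2 CPM and 29.9 CPM, and their ranges overlapped. The thinned share of APC-like cells with an Mfap4 UMI was 3.50% in eWAT and 0.654% in iWAT, against 0.2197% and 0.0340% of macrophage-like cells. Unthinned, it was 10.4% and 2.05%, at median depths of 3288 and 3445 UMIs.

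Fbln2 differed by -0.65 ± 0.15 (adjusted p = 0.0113), and its call ended without ob/ob-Veh replicate 2 of eWAT (adjusted p = 0.0505), while Mfap4, Emilin1 and Ltbp4 kept theirs with each library left out in turn. Of the members without a call, Mfap5 ran from 911 to 2604 CPM in eWAT and 359 to 1562 CPM in iWAT preadipocyte-like cells, and these ranges overlapped.

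**Figure D5:**
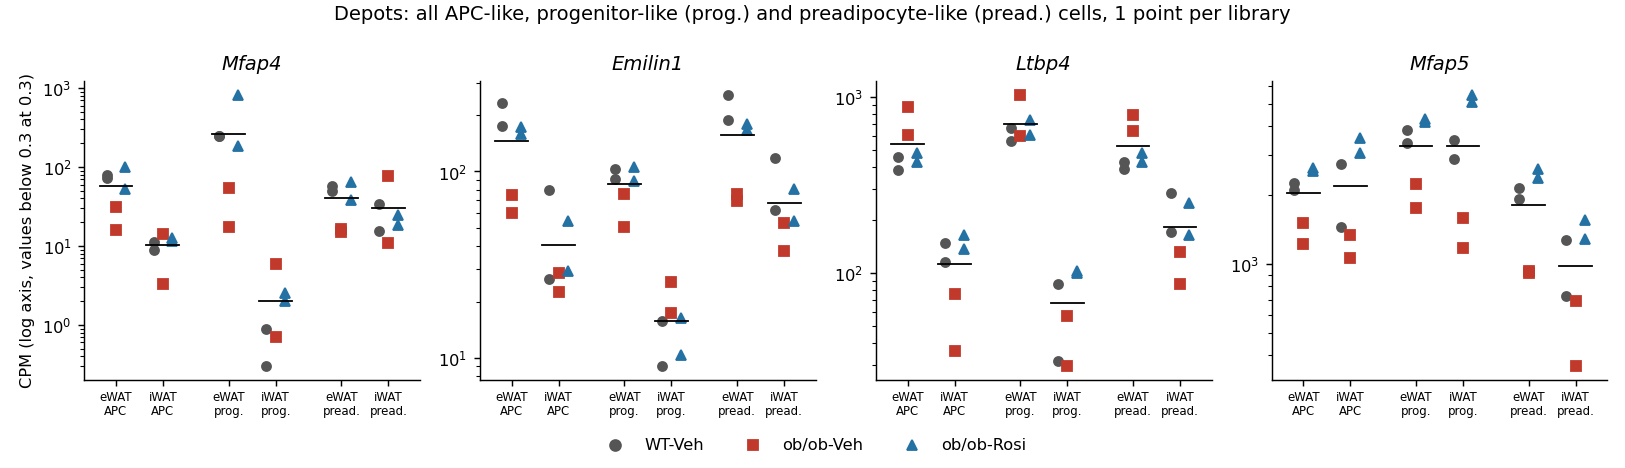
CPM of Mfap4, Emilin1, Ltbp4 and Mfap5 in all APC-like cells (APC) and in progenitor-like (prog.) and preadipocyte-like (pread.) cells of eWAT and iWAT, on log axes that differ between genes. Each point is 1 library, lines are the mean of 6, and values below 0.3 are drawn at 0.3. Emilin1 and Ltbp4 progenitor-like libraries of iWAT all lie below those of eWAT, and Mfap5 progenitor-like libraries overlap.

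Whether the group effects themselves differed between depots was tested as an interaction. In APC-like cells 0 of 10 members were called by edgeR for ob/ob-Veh against WT-Veh (0.388% of 14158 genes) and 0 of 10 for ob/ob-Rosi against ob/ob-Veh (0.268%), with 2 and 3 at an unadjusted p under 0.05 and 2 and 2 called by DESeq2. Over all 14158 genes 1194 and 1260 had an unadjusted p under 0.05, and DESeq2 called 279 and 286. Ltbp4 came nearest: its ob/ob-Veh effect differed between iWAT and eWAT by -2.07 ± 0.45 (adjusted p = 0.0976) and its ob/ob-Rosi effect by 2.21 ± 0.45 (adjusted p = 0.0742), and it was highest in ob/ob-Veh in eWAT and lowest in ob/ob-Veh in iWAT. Fbln5 followed with -0.94 ± 0.30 (adjusted p = 0.294) and 1.11 ± 0.30 (adjusted p = 0.164).

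Related genes were read from 5 fixed lists of the elastic fibre pathway, tested in APC-like cells, where 7.55% of all genes were called for ob/ob-Veh and 8.48% for ob/ob-Rosi in eWAT, and 0.346% and 0.633% in iWAT. Of the 20 tested relatives and assembly genes, 3 were higher and 4 lower in ob/ob-Veh than in WT-Veh eWAT, with a median log2 difference of -0.25 against -0.0053 over all genes, and 3 were higher and 4 lower in ob/ob-Rosi than in ob/ob-Veh (median 0.18 against -0.0071). Fbln7, a further fibulin, had 96.4 and 103 CPM in WT-Veh, 9.08 and 10.4 CPM in ob/ob-Veh and 95.7 and 181 CPM in ob/ob-Rosi (log2 differences -3.42 ± 0.35 and 3.88 ± 0.35, adjusted p = 0.000464 and 0.000255). It was also the 1 called gene of the lists in iWAT, higher in ob/ob-Rosi at 85.8 and 61.1 CPM than in ob/ob-Veh at 5.01 and 13.6 CPM (log2 difference 3.1 ± 0.46, adjusted p = 0.0403). Ltbp2, which binds fibrillin and not latent TGF-β, had 55.2 and 58.2 CPM, 4.14 and 5.76 CPM, and 31.6 and 41.9 CPM (log2 differences -3.60 ± 0.28 and 2.96 ± 0.28, adjusted p = 0.000135 and 0.000309). Fbn2, which encodes fibrillin-2, was also lower in ob/ob-Veh, at 4.22 and 3.20 CPM against 49.96 and 10.8 CPM (log2 difference -3.10 ± 0.66, adjusted p = 0.0171).

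Efemp1 and Adamtsl4 were higher in ob/ob-Veh and lower in ob/ob-Rosi in eWAT. Efemp1, which encodes fibulin-3, had 291 and 378 CPM in WT-Veh, 1015 and 912 CPM in ob/ob-Veh and 423 and 253 CPM in ob/ob-Rosi (log2 differences 1.48 ± 0.31 and -1.48 ± 0.31, adjusted p = 0.0176 and 0.0160). Adamtsl4, an ADAMTS-like protein that binds microfibrils, rose from 11.6 and 14.2 CPM to 44.6 and 41.1 CPM and was at 14.2 and 8.65 CPM in ob/ob-Rosi (log2 differences 1.68 ± 0.30 and -1.89 ± 0.30, adjusted p = 0.00761 and 0.00406). Mmrn1 was near 0 in every group, at 0.920 and 0 CPM in WT-Veh, 1.29 and 1.45 CPM in ob/ob-Veh and 0 in both ob/ob-Rosi libraries. It was called lower in ob/ob-Rosi than in ob/ob-Veh, where a fold cannot be given. Mmrn1 was also a leading gene of eWAT EC-like cluster 21, and the part of RNA from those cells was not tested.

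Of the 5 crosslinking genes, the lysyl oxidase family, 0 were called by edgeR in either eWAT comparison, with 0 and 0 at an unadjusted p under 0.05 and 0 and 0 called by DESeq2. Of 8 TGF-β ligands and receptors, 2 were higher and 1 lower in ob/ob-Veh (median -0.54), including Tgfb2, at 91.3 and 117 CPM against 34.6 and 53.3 CPM (log2 difference 1.18 ± 0.27, adjusted p = 0.0248), and 1 was higher and 1 lower in ob/ob-Rosi (median 0.29). Of the 7 tested integrins 0 were called by edgeR in either comparison, with 3 and 1 at an unadjusted p under 0.05 and 0 and 1 called by DESeq2. Of 10 tested genes of elastin degradation and the elastin receptor, 4 were lower in ob/ob-Veh (median -0.95) and 6 higher and 1 lower in ob/ob-Rosi (median 1.04). Mmp12, the macrophage elastase, had 22.5 and 8.46 CPM, 3.61 and 4.19 CPM, and 48.3 and 54.8 CPM (log2 differences -2.07 ± 0.43 and 3.77 ± 0.44, adjusted p = 0.0160 and 0.000921). Mmp9, a gelatinase, was lower in ob/ob-Rosi, at 1.56 and 0.683 CPM against 5.40 and 6.63 CPM (log2 difference -2.43 ± 0.52, adjusted p = 0.0168). Ctss is in this list and in the macrophage list, Mmp12 and Mmp9 were each the first leading gene of an eWAT macrophage-like cluster, and the part of macrophage RNA in the values of these genes was not tested.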

How the data were processed

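Single cells of the stromal vascular fraction were measured in 12 libraries, 2 per group and depot. The deposited matrices hold raw UMI counts per gene and barcode, which the authors made with bcl2fastq 2.19.1.403 and Cell Ranger 3.0.2 on the mm10 build. The iWAT files had already been filtered on UMIs and mitochondrial share, and the eWAT files had not. Cells with 700 to 22000 UMIs, 200 to 6000 genes and at most 25% mitochondrial UMIs were kept in both depots. Each depot was clustered with scanpy 1.11.5 (2000 variable genes, 25 components, Leiden resolution 1), leaving the 10 members and the 53 genes of 5 pathway lists out of the variable genes, and APC-like cells were clustered again (15 components, resolution 0.6). Component scores were rounded to 3 decimals, since cluster borders moved with numerical rounding. Clusters took the class with the largest share of markers at least 2-fold above the other cells, with at least 3 markers detected, and stayed unnamed where 3 or more adipocyte genes, or several markers of another class and fewer of their own, were among their 10 leading genes. APC-like subclusters took the subclass of the higher mean marker score and stayed unnamed with 3 or more markers of another class or 7 or more immune genes among them. Planned tests within the APC-like subclasses and in iWAT EC-like cells were run and are not reported, because some of their clusters had more markers of another class than of their own among their leading genes or because the borders moved. Scrublet doublet calls were removed only as an alternative.

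UMIs were summed per library and class (at least 20 cells) and tested with edgeR 4.0.16 (quasi-likelihood, TMM, filterByExpr), with Benjamini-Hochberg adjustment over all genes tested. With 2 libraries per group and 3 residual degrees of freedom, an exact permutation test of 1 gene could not go below p = 0.333. Depots were compared in 1 fit of 12 libraries, taken as independent, although the labels do not say whether both depots came from the same mice. Each figure of the form a ± b beside a log2 difference is an estimate and its standard error, and fold changes come from that fit. Alternatives were DESeq2 1.42.0, other scalings, no filter, a replicate block, thinned cells, cells assigned singly, other clusterings and leaving out each library. The edgeR step was first tested on simulated counts. Named genes were all 10 members, up to 3 called pathway genes in each direction by size of the ob/ob and of the rosiglitazone effect, and the 3 genes most like each member. Members, markers and lists were chosen with earlier results of these data known. The labels call the libraries of a group biological replicates. Promoter windows are from RefSeq (GRCm38.p6).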

Additional observations from a re-analysis of the deposited data

How the results depend on the processing

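Of 15 called member differences, 0 reversed under any alternative run. Under other settings 142 of 142 fits kept the call, and with 1 library left out 92 of 114 did, 5 of the 15 keeping it with each library left out in turn.

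Counts of called members are given first for the ob/ob-Rosi and then for the ob/ob-Veh comparison. By DESeq2 they were 6 and 5 in eWAT APC-like, 4 and 2 in iWAT APC-like, 3 and 2 in eWAT EC-like and 2 and 2 in mesothelial-like cells, and 2 and 2 for the depot interactions in APC-like cells. In the same order DESeq2 called 1463 and 1330 of 13181 genes, 1090 and 649 of 13576, 445 and 563 of 10993, 220 and 311 of 7518, and 286 and 279 of 14158. Without the low-count filter, again in that order, the counts of members were 6 and 4, 4 and 4, 4 and 3, 2 and 1 and 1 and 2. Thinned to 700 UMIs they were 3 and 0 in iWAT APC-like and 2 and 1 in eWAT EC-like cells. With cells assigned singly they were 1 and 2 in mesothelial-like cells. With Scrublet calls removed they were 3 and 1 in eWAT EC-like and 0 and 2 in mesothelial-like cells. Of the pathway genes in APC-like cells, 14 were called for ob/ob-Veh in eWAT and 23 without the filter, while iWAT gave 0 for ob/ob-Veh, 7 by DESeq2 and 10 without the filter, and 1 for ob/ob-Rosi, 8 by DESeq2, 3 by library size alone and 10 without the filter. The cause of these moves was not tested. For the settings of this section other than DESeq2 no share over all genes is given, so their counts have no background beside them.

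Replicate numbers are shared between groups, but the labels do not say that a number marks a shared day or litter. The differences of replicate 1 and 2 correlated between groups from 0.214 to 0.352 in the eWAT classes tested and from -0.0408 to 0.547 in iWAT APC-like cells. With the replicate block the counts were 6 and 4 in eWAT APC-like, 5 and 4 in eWAT EC-like, 3 and 2 in mesothelial-like and 2 and 0 in iWAT APC-like cells, and 1 and 1 for the interactions.

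Leaving out each library in turn, counts for ob/ob-Rosi ran from 1 to 6 in eWAT APC-like, 0 to 3 in eWAT EC-like and 0 to 4 in iWAT APC-like cells. Counts for ob/ob-Veh ran from 1 to 4 in eWAT APC-like, 0 to 2 in eWAT EC-like, 0 to 2 in mesothelial-like and 0 to 4 in iWAT APC-like cells. The interaction for ob/ob-Rosi ran from 0 to 1. Of 40 class levels, 3 moved beyond the spread between libraries with cells assigned singly, 1 when thinned and 0 without Scrublet calls. Few UMIs were counted for Mfap4 in iWAT progenitor-like cells and for Mfap2 and Mfap4 in mesothelial-like cells, which limits the precision of these values, although the cells were not shallow, at median depths of 3678 and 5901 UMIs.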

Other observations

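No cluster was named mural. An unnamed eWAT cluster of 166 cells, 15 to 53 per library, held mural and adipocyte genes together among its leading genes, among them Myh11, Acta2, Cidec, Adipoq and Plin1. Cells assigned singly to the mural class by their markers numbered 130 in eWAT, from 5 to 38 per library, and 148 in iWAT, from 3 to 79 per library. The level of the members in mural cells, a known source of arterial elastin, was not compared between groups.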
